A study of Mus musculus with 8 samples.

Results

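Cluster 10 of the liver nuclei, the dividing nuclei, was taken as the authors numbered it. It is given as 2 columns of gene averages, 1 from a control pool and 1 from an MKO pool, among the 26 columns of 13 clusters, and all 22578 listed genes were read in both. Control mice (flox/flox) carry floxed Tgfbr1 alleles. Tgfbr1 MKO mice (flox/flox; LysMcre) carry the same floxed alleles and Cre recombinase driven by the Lyz2 (LysM) locus, which is active in macrophages, monocytes and neutrophils, so the floxed alleles are shared by all mice and the Cre sets the groups apart. Every mouse had been given a MASH diet, a diet that models metabolic dysfunction-associated steatohepatitis, for 30 weeks; neither age nor sex is stated in the labels. Each nucleus pool mixed 3 livers and was sequenced as 1 library, so no test between genotypes is possible within the cluster, and all comparisons between its columns are descriptions of those pools. Whole-liver RNA, as 3 control and 3 MKO libraries, was the replicated measurement. The labels number these libraries but do not name separate animals, and each library is called a liver below.

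A dividing cell copies its DNA in S phase and separates the copies in mitosis. Licensing factors and polymerases act first, then condensins compact the chromosomes, kinetochores attach them to the spindle, kinesins move them and the cytokinesis machinery cuts the cell apart. Many mitotic genes carry a CHR element close to the transcription start, a site through which the DREAM and MuvB complexes hold them silent in resting cells and turn them on late in the cycle, whereas many S phase genes carry E2F sites. In diseased liver, resident macrophages, endothelial cells, lymphocytes and hepatocytes can all enter the cycle, so nuclei grouped by division may come from several lineages.

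Promoters of the cycle genes listed here were searched for these elements. The 3 replication lists used here (licensing and G1/S entry, DNA synthesis, fork repair) and the 5 mitosis lists (condensation, kinetochore, spindle, cytokinesis, mitotic kinases) were read on both strands in RefSeq promoter windows of 300 bases, 250 before to 50 after the start, on GRCm38.p6, the first window listed for each symbol. The CHR element was searched as TTTGAA or as TTCGAA. An E2F site was searched as TTCCCGC or by the variant TTGGCGC, and further as TTGCCGC or by its variant TTCGCGC. The CCAAT box was searched as those 5 letters. Matches that overlap each other were counted separately. A CHR form was present in 55 of the 79 matched mitosis promoters (69.6%) and in 12 of the 57 matched replication promoters (21.1%), against 19.4% of all 27025 promoters. An E2F form was present in 36 of 57 replication promoters (63.2%) and 19 of 79 mitosis promoters (24.1%), against 9.69% of all. CCAAT was found in 67.1% of the mitosis set, 56.1% of the replication set and 37.9% of all promoters. Among single lists the CHR share was highest in cytokinesis, at 9 of 11, and the E2F share in fork repair, at 11 of 14. The mitosis lists differed in E2F forms, from 1 of 19 kinetochore promoters to 8 of 15 condensation promoters, a share near that of DNA synthesis (14 of 25). No histone promoter was matched. A match is a run of letters and not a bound site.

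The windows below run from 150 bases before to 30 after the start and are shown because they contrast 4 mitotic genes of the cluster with 2 replication genes. Capitals mark CHR forms in the first 4 and E2F forms in the last 2, except that Mki67 holds both, with TTGGCGC as its E2F form. Top2a lies at chr11:99024160-99024339 (- strand), Mki67 at chr7:135716350-135716529 (- strand), Kif11 at chr19:37376232-37376411 (+ strand), Kif23 at chr9:61946770-61946949 (- strand), Pola1 at chrX:93632126-93632305 (- strand) and Mcm6 at chr1:128359676-128359855 (- strand). Top2a (DNA topoisomerase II alpha, which untangles sister chromatids) holds 3 CHR matches and Mki67 (the Ki-67 chromosome surfactant) 2. Kif11 (the kinesin that pushes spindle poles apart) and Kif23 (a kinesin of the central spindle) hold 1 each, in Kif11 as the reverse complement. Pola1 (the catalytic subunit of DNA polymerase alpha) holds 3 E2F matches, and Mcm6 (a subunit of the replicative helicase) 4, in overlapping pairs.
Top2a: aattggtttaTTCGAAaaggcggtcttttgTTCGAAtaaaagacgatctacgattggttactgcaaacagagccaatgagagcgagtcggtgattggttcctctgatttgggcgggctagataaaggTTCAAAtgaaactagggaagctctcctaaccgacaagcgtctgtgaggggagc
Mki67: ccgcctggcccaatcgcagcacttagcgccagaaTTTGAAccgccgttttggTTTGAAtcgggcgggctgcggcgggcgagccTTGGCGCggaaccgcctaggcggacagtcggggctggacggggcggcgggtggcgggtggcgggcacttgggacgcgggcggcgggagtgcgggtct
Kif11: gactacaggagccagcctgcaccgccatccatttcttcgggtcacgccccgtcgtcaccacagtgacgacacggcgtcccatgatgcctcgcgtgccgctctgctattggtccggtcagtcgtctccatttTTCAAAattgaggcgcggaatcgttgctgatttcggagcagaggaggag
Kif23: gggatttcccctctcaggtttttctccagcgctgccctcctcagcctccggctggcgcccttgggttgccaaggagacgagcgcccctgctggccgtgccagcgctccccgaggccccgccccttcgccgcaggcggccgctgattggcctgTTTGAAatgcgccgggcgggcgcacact
Pola1: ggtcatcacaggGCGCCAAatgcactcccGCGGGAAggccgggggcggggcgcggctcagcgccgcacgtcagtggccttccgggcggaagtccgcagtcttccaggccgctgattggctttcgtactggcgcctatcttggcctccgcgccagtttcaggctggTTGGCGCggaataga
Mcm6: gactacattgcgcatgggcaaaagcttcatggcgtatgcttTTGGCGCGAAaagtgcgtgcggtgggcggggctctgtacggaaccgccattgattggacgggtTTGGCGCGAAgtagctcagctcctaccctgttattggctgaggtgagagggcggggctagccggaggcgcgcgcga

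Each of the 5 markers given with the cluster was highest there in both pools. Nucleus values are averages on a scale where each column sums to 10000. Top2a was 12.9 in the control column and 9.13 in the MKO column, against no more than 0.178 and 0.538 in the other 12 clusters. Mki67 was 5.04 and 5.52, against at most 0.0759 and 0.243. For Kif11 the values were 7.57 and 4.69, and the highest value elsewhere was 0.0333 and 0.0934. Diaph3 (a formin that builds actin filaments for cytokinesis) stood at 13.2 and 7.63, with at most 0.177 and 1.39 elsewhere. Knl1 (a kinetochore scaffold that recruits checkpoint proteins) was 5.86 and 4.75, with at most 0.0529 and 0.514 elsewhere. Summed, the 5 markers came to 44.6 and 31.7, which is 102 times and 11.9 times the next cluster. That next cluster was cluster 7, T and NK-like by its markers, in the control pool (0.439) and cluster 12, which held the mesothelial markers, in the MKO pool (2.66). These genes name the cluster, so the height of its cycle genes over other clusters is a description and not a finding. In the GENCODE M21 annotation of GRCm38 (mm10) the 5 genes are protein-coding and lie on different chromosomes: Top2a on chromosome 11 from 98992943 to 99024189, Mki67 on chromosome 7 from 135689784 to 135716361, Kif11 on chromosome 19 from 37376403 to 37421859, Diaph3 on chromosome 14 from 86655367 to 87141235 and Knl1 on chromosome 2 from 119047119 to 119105501.

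**Figure D1:**
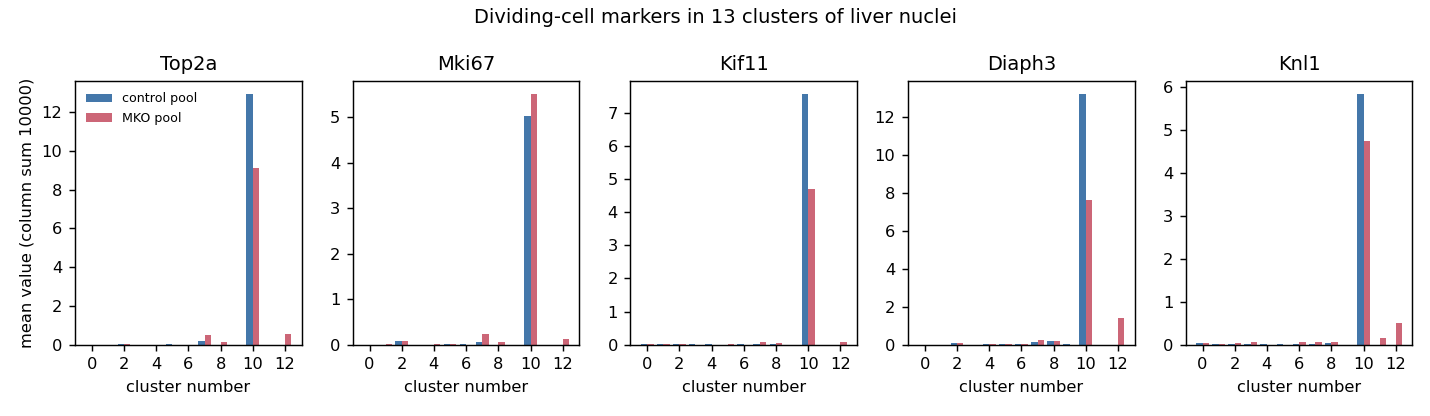
Average level of the 5 markers (vertical axis, scale on which a column sums to 10000) in each of the 13 numbered clusters (horizontal axis), with 1 bar per pool and no error bars because each bar is 1 pool. Cluster 10 holds the tall bars in every panel, for example 12.9 and 9.13 for Top2a.

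The breadth of the program was similar in the 2 pools. Of 180 cell cycle genes listed, 158 had their highest value in cluster 10 in control and 171 in MKO nuclei. Their sum was 301 in the control pool, where cluster 7 came next with 22.5, and 246 in the MKO pool, where cluster 7 again came next with 29.2. Among the 822 genes that reached 2.01 (the floor used here, set at the 90th percentile of the non-zero values in the cluster after taking the larger of both pools) in both pools, 45 were at least 2 times their highest value elsewhere in both pools, with a pseudocount of 0.201 added to each value, and 27 of those 45 belonged to the cycle lists. On the same ratios, 28 genes were left at 4 times, 22 of them in the lists, and 14 at 8 times; the pseudocount lowers the ratios, so that some genes short of a limit pass it on the plain values. The 20 genes with the largest ratio were led by Kif11, Kif15 (a kinesin that backs up Kif11), Nusap1 (a microtubule bundler), Mki67 and Top2a. Among the others were Tpx2, Stmn1, Cenpe, Neil3, Prc1, Anln, Ect2, Cenpp, Kif4, Brip1, Ndc80, Knl1, Kif23 and Lockd. Lockd is a long noncoding RNA next to Cdkn1b and stood at 6.50 and 5.15, with at most 0.283 and 0.681 elsewhere. Neil3, a glycosylase that repairs oxidised bases and crosslinks, stood at 5.01 and 4.72 and is outside the cycle lists.

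Over the 26 columns, the genes whose log2 levels followed Top2a most closely were Prc1 (Pearson r = 0.988), Mki67 (0.985), Kif15 (0.979), Diaph3 (0.979), Cenpe (0.974), Depdc1a (0.972), Neil3 (0.972), Birc5 (0.97), Hmmr (0.97) and Kif11 (0.97). These are descriptions over 3915 genes compared. The columns come from 2 libraries, and the 2 columns of cluster 10 set nearly all of the range.

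Cluster 10 was one of the thinner columns. In the control pool 12168 genes (53.9%) had a value above 0 and in the MKO pool 13754 (60.9%), against 19887 and 19804 in cluster 0. No source used here gives the number of nuclei behind a column, so no interval can be put on a value. The log2 ratio of MKO over control, for the 1480 genes whose larger value reached the floor and with the same pseudocount, had a median of -0.09 and a standard deviation of 0.92 over genes, against 0.343 to 0.774 in the other clusters. In cluster 10, 164 genes (11.1%) were 2-fold or more higher in MKO and 161 (10.9%) 2-fold or more lower. Both directions together made up 21.96%, against 2.23% to 19.0% elsewhere, with 19.0% in cluster 12 and 10.9% in cluster 11, whose columns had fewer genes above 0 still. How much of this spread comes from few nuclei was not tested. A gene could reach the floor through 1 pool alone, which favours large ratios here and in the counts past the floor below.

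Within the cluster, most genes of the cytokinesis, kinetochore, spindle and condensation lists were lower in the MKO pool, and most of the DNA synthesis, licensing and histone lists were higher. The fork repair list was mostly lower and the mitotic kinase list was split. Of the 50 cycle genes past the floor, 0 were 2-fold higher and 4 were 2-fold lower, against 11.1% and 10.9% of all genes past the floor. The 4 were Ckap2, a spindle protein (5.18 to 1.59), Cenpf, an outer kinetochore protein (4.75 to 1.80), E2f7, an E2F family repressor (2.55 to 0.83), and Cep55, an abscission factor (2.34 to 1.01). All 4 reached the floor through the control pool alone. The median log2 ratio of the 50 was -0.44 (all genes past the floor, -0.09), and over all 180 cycle genes it was -0.066. Single genes mostly differed by less than 2-fold, so the lists are described by sums and by the number of members on each side.

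All 12 cytokinesis genes were lower in the MKO pool, and the list summed to 50.4 in control and 32.5 in MKO nuclei. Besides Diaph3, Kif23 went from 7.46 to 5.11. Anln (anillin, which ties actin and septins to the cleavage furrow) was 4.93 and 3.02. Ect2 (the exchange factor that switches on RhoA at the furrow) was 4.29 and 2.75. Prc1, which bundles the central spindle, was nearest to equal, at 4.75 and 4.27. No gene of this list crossed to the other side under any of 3 other scalings of the columns.

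The kinetochore list, 18 of 23 members lower, summed to 58.9 and 42.4. Cenpp, of the constitutive centromere network, was 7.34 and 4.64. Hjurp, the chaperone that loads the centromeric histone, was 6.22 and 3.80. Cenpe, a kinesin that carries chromosomes to the metaphase plate, was the exception among the abundant members, at 2.91 and 4.43.

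The spindle list, 16 of 23 lower, summed to 61.7 and 46.0. Kif20b, a kinesin of late mitosis, was 4.42 and 2.18, just short of 2-fold once the pseudocount is added. Kif15 (5.28 and 4.94), Tpx2, which activates Aurora A on the spindle (3.89 and 3.14), and Nusap1 (3.82 and 3.73) were close to equal. Kif4, a chromosome-bound kinesin, was higher in the MKO pool (2.36 and 3.06).

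The condensation and cohesion list, 12 of 17 lower, summed to 49.4 and 38.7. Smc4 and Smc2, the paired ATPases of condensin, were 8.77 and 6.39 and 3.63 and 2.76. Mitotic kinases, cyclins and APC factors split evenly, with 10 members lower and 10 higher and sums of 17.0 and 16.2. Cdk1, the kinase that drives entry into mitosis, was 1.71 and 1.12, and its partner Ccnb1 0.915 and 0.989.

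On the replication side, 17 of 28 DNA synthesis genes were higher in the MKO pool and the list summed to 26.2 and 29.9. Pola1 was 3.92 and 6.36, Prim2 (the large primase subunit) 1.75 and 2.23, and Pcna (the sliding clamp) 0.229 and 1.10. Atad2, a chromatin ATPase of S phase, went the other way, at 5.29 and 4.40. Licensing and G1/S genes summed to 11.6 and 12.8, with 16 of 23 higher. E2f7, the 1 member of that list past the floor, was among the 4 genes lower by 2-fold. Below the floor, Gmnn (geminin, which blocks relicensing) was 0.401 and 1.09 and Mcm10 0.692 and 0.996. The fork repair list summed to 21.9 and 20.3 with 12 of 19 lower, among them Brca1 (2.43 and 1.84). Higher DNA synthesis and licensing sums in the MKO pool were not confined to cluster 10. DNA synthesis genes summed to 5.14 and 5.83 in macrophage-like cluster 2, 4.38 and 4.47 in cluster 4 and 6.31 and 8.11 in cluster 7. Cluster 8 went the other way, from 6.32 to no more than 5.83. Licensing genes summed to 1.26 and 1.56, 1.55 and 1.59, and 2.27 and 3.05 in clusters 2, 4 and 7. Medians over the other 12 clusters were 4.10 and 4.50 for DNA synthesis and 1.28 and 1.61 for licensing.

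Replication-dependent histones and the 2 variant genes listed with them were higher in 14 of 15 cases, with sums of 3.73 and 7.33. H2afz, a variant that is not confined to S phase, made up much of both sums (2.66 and 3.78). The linker histone Hist1h1b was 0.0852 and 0.558, and Hist1h1e was listed at 0 in control and at 0.437 in MKO nuclei. In the control column 9 of the 15 genes were listed at 0. A higher histone sum in the MKO pool was not confined to cluster 10. The list summed to 0.761 and 1.04 in cluster 2, 0.756 and 0.998 in cluster 4 and 1.12 and 1.59 in cluster 7. Its median over the other clusters was 0.494 and 0.855.

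Level and detection moved with these counts. Of all genes with a mean level under 0.5 in the cluster, 56.0% were higher in the MKO pool, of those from 0.5 to 2 46.4%, and of those at 2 or more 45.4%. Of the 15 histones, 13 lay under 0.5, and 12 of these 13 were higher. Between 0.5 and 2, 10 of 17 DNA synthesis genes and 7 of 10 licensing genes were higher. At that level 2 of 11 kinetochore, 1 of 7 condensation and 0 of 5 cytokinesis genes were higher. The spindle list was split there, with 6 of 12 higher, beside 7 of 13 mitotic kinase genes and 6 of 13 fork repair genes. At 2 or more, 1 of 11 spindle genes was higher, so its lower members lay mostly at high level. With the columns rescaled so that the median ratio was 1, mitotic kinase genes went to 12 higher and 8 lower and all 180 cycle genes to 90 and 90, and the sums of the mitotic kinase list turned (17.0 and 17.3). The cytokinesis, kinetochore, spindle, condensation, DNA synthesis, licensing and histone lists kept the direction of their sums under all 3 rescalings.

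**Figure D2:**
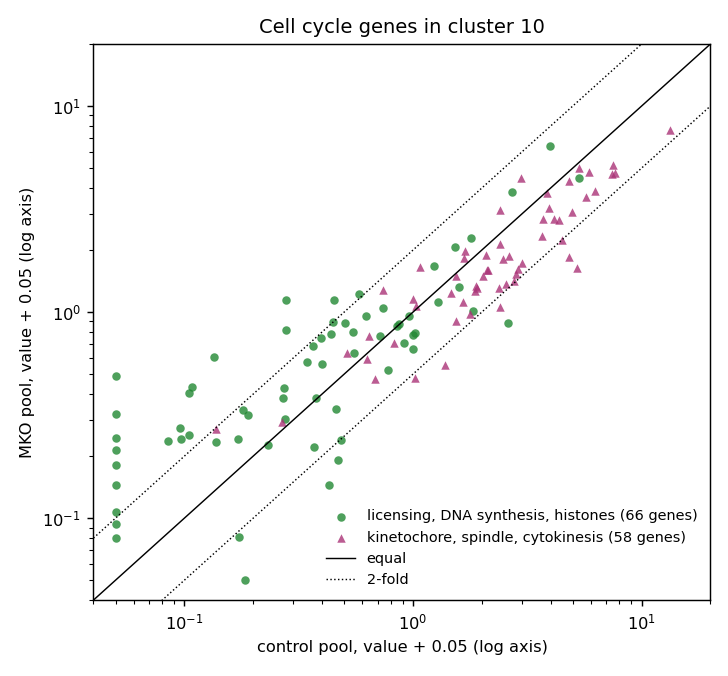
Level in the control pool (horizontal) against the MKO pool (vertical) of cluster 10, both as value + 0.05 on log axes, for 66 genes of licensing, DNA synthesis and histones (circles) and 58 genes of kinetochore, spindle and cytokinesis (triangles); the solid line is equality and the dotted lines 2-fold. The triangles lie mostly below the line at the upper right, and the circles at the left edge are genes listed at 0 in the control pool.

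Brakes and G1 regulators, kept apart from the cycle lists, were not highest in this cluster as a sum, though 6 of the 20 in control and 7 in MKO nuclei were. Their sum was 18.5 in control and 23.5 in MKO nuclei, against 31.7 and 35.7 in cluster 7. Rb1 (the retinoblastoma repressor) was 3.86 and 5.14, its relative Rbl1 2.11 and 2.77 (at most 0.589 and 0.798 elsewhere), and Ccnd3 (cyclin D3) 1.42 and 2.39. Of 5 members past the floor, none differed 2-fold.

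Lineage genes in the cluster differed between the pools, with a median log2 ratio of 1.11 over all 19 macrophage markers and -0.98 over all 14 sinusoidal endothelial markers, against -0.066 over all 180 cycle genes. Past the floor the medians were 1.11 over 13, -1.71 over 4 and -0.44 over 50. The floor takes the larger of the pools, so these medians and the counts past it lean toward large ratios. The list of macrophage markers summed to 36.3 in control and 73.7 in MKO nuclei, which is 39.2% and 64.0% of its sum in cluster 2, the macrophage-like cluster (92.8 and 115). Of its 19 members, 17 were higher in the MKO pool, and of the 13 past the floor 7 were 2-fold higher and 0 lower, beside 11.1% and 10.9% of all genes past the floor. Cd5l, a secreted protein of resident macrophages, was 3.12 and 10.4. Adgre1, which encodes the F4/80 antigen, was 2.77 and 6.78, and Clec4f, a lectin of Kupffer cells (the resident liver macrophages), 1.89 and 4.33. The complement genes C1qa, C1qb and C1qc went from 0.765, 0.818 and 1.09 to 3.56, 4.48 and 3.79. In cluster 2 the same markers differed less, with 9.46 and 11.8 for Cd5l, 7.68 and 10.5 for Adgre1 and 6.91 and 7.11 for Clec4f. Mrc1, which sinusoidal endothelium also expresses, was 8.04 and 7.27. The C1q genes and Clec4f reached the floor through the MKO pool alone. The sum of the macrophage list was also higher in the MKO pool outside clusters 10 and 2, at 2.08 and 4.75 in cluster 7 and 25.3 and 26.6 in cluster 4. Its median over the other 12 clusters was 3.79 and 5.45.

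Sinusoidal endothelial markers went the opposite way. That list summed to 40.1 and 15.4, or 20.7% and 7.80% of its sum in cluster 4, the sinusoidal endothelial-like cluster, where the sum was nearly the same in both pools (194 and 197). Of its 14 members, 13 were lower in the MKO pool, and of the 4 past the floor 3 were 2-fold lower and 1 was 2-fold higher. Stab2, a scavenger receptor that clears hyaluronan, was 14.4 and 3.55 in cluster 10 and 70.5 and 65.2 in cluster 4. Ptprb, the vascular endothelial phosphatase, was 9.97 and 1.44 against 46.3 and 42.9. F8, coagulation factor VIII, was 4.27 and 1.43 against 22.2 and 21.9. Pecam1 was the exception, at 2.40 and 5.50, and it was also higher in the MKO pool of cluster 2 (1.15 and 8.36). Ptprb and F8 reached the floor through the control pool alone.

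T and NK markers had a like sum in both pools, 15.2 and 15.8, or 13.2% and 13.9% of cluster 7, but single members differed. The 2 past the floor differed by 2-fold in opposite directions, Skap1, an adaptor of T cell receptor signalling, at 1.91 and 4.46 and Prkcq, the T cell kinase PKC theta, at 2.23 and 0.786. Ccl5, a chemokine of cytotoxic lymphocytes, was 1.51 and 0.613. Cd3e, part of the T cell receptor complex, was 0.473 and 0.757 and Cd247, its zeta chain, 1.38 and 1.42, while the NK receptor Ncr1 was listed at 0 in both. B and plasma markers summed to 2.34 and 6.72, at most 3.79% of cluster 8, the cluster where they are highest. Stellate and fibroblast markers came to 4.78 and 3.88, and bile duct markers to 1.04 and 0.557. Hepatocyte RNA was in every column. The hepatocyte list summed to 52.7 and 92.5 in cluster 10, below the lowest of the other 12 clusters in each pool (79.3 and 117), and Alb was 17.0 and 32.3 against 24.7 or more and 39.6 or more elsewhere. The hepatocyte level in this cluster was thus below that in every other cluster of its pool, macrophage-like and lymphocyte-like ones included.

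A non-negative least squares fit wrote each cluster 10 column as a sum of the other 12 columns of its pool, over 159 lineage genes. In the control pool the weights were 45.8% for cluster 2, 25.7% for cluster 4 and 14.8% for cluster 7. In the MKO pool they were 72.9%, 2.11% and 12.9%. The largest other weights were 9.17% for cluster 11 in the control pool and 10.5% for cluster 3, one of the hepatocyte clusters, in the MKO pool. The fit took up 42.1% and 49.0% of the variation between genes in the 2 pools (R2 of 0.421 and 0.49), so the weights are rough shares of lineage RNA and not counts of nuclei. In the 4 versions of the fit, cluster 2 lay between 36.6% and 50.2% in the control pool and between 62.4% and 72.9% in the MKO pool. Cluster 4 lay between 25.7% and 32.4% and between 0.551% and 10.3%, and cluster 7 between 14.5% and 22.7% and between 12.9% and 26.4%. How doublets were treated is not stated in any source used here, and their part in the mix was not tested. Fewer nuclei of a lineage and less of its RNA per nucleus cannot be told apart in an average.

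**Figure D3:**
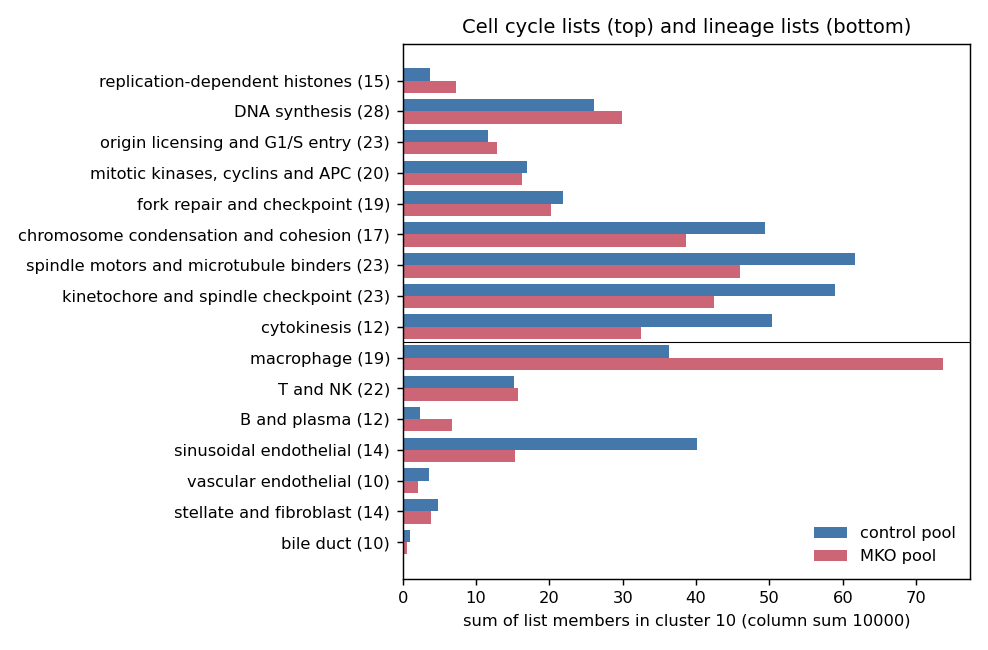
Summed level in cluster 10 (horizontal axis, column sum 10000) of 9 cell cycle lists above the line and 7 lineage lists below it, with 1 bar per pool and the number of genes in parentheses. The macrophage bar is longer in the MKO pool (73.7 against 36.3) and the sinusoidal endothelial bar shorter (15.4 against 40.1), while cycle bars differ less.

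Many genes with large differences between the pools had their highest values elsewhere in the clusters of these lineages. Of the 161 genes that were 2-fold lower in the MKO pool, 62 (38.5%) had their highest value among the other clusters in cluster 4 in the control pool, against 10.4% of all 1480 genes past the floor. Of the 164 that were 2-fold higher, 69 (42.1%) had it in cluster 2 in the MKO pool, against 21.0% of all. These genes were chosen by the ratio itself, so the shares are descriptions. Within cluster 4, 132 of the 161 lower genes could be compared, and 3 of those were 2-fold lower there too, with a median log2 ratio of -0.18, beside 4 of all 1025 genes compared and a median of -0.08. Within cluster 2, 29 of the 67 lower genes compared were also 2-fold lower (median -0.85), beside 49 of all 1209. Within cluster 2, 150 of the 164 higher genes could be compared, and 40 were 2-fold higher there too, with a median of 0.71, beside 56 of all 1209 and a median of -0.05. Within cluster 4, 16 of the 55 higher genes compared were also 2-fold higher (median 0.85), beside 24 of all 1025.

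The 10 lowest ratios with named genes were those of Mecom, Pcdh7, Fgf13, Pde4d, Tead1, Ghr, Nek3, Ldb2, Ptprb and Meis2. Mecom, a transcription factor that in these data was highest in cluster 9 (30.9 and 23.3), was 3.31 in control and listed at 0 in MKO nuclei. Meis2, a homeobox factor, was 7.78 and 1.18 in cluster 10 and 27.5 and 27.3 in cluster 4. Ldb2, a LIM domain binding cofactor, was 5.65 and 0.677 against 16.9 and 14.4. In cluster 2, 4 of the 10 could be compared, and all 4 were 2-fold lower in the MKO pool there too. Fgf13, a non-secreted growth factor relative, was 8.11 and 0.672 in cluster 10 and 4.30 and 0.137 in cluster 2. Pcdh7, a protocadherin, was 3.28 and 0.104, then 1.57 and 0.122. Pde4d, a cAMP phosphodiesterase, was 6.09 and 0.462, then 1.44 and 0.309, and Ghr, the growth hormone receptor, 3.55 and 0.335, then 2.35 and 0.734. The drop in these last genes was not confined to clusters 10 and 2. Ghr was lower in the MKO pool in every cluster, for example 84.1 and 68.7 in cluster 1, where it was highest, and 4.56 and 1.17 in cluster 7. Pde4d was lower in most clusters (3.26 and 1.39 in cluster 7) but higher in clusters 6 (8.65 and 13.6) and 12 (1.20 and 1.96).

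The highest ratios were those of Hbb-bs, Hba-a2, Hbb-bt, Hba-a1, Wfdc17, Ikzf2, Fcrl5, Adgrl3, Sirpb1c and Klra2. Of the 6 outside the globins, 5 had their highest value elsewhere in the MKO pool in cluster 2, and Ikzf2 had it in cluster 7. Fcrl5, an Fc receptor-like gene, was 0.226 and 3.38 in cluster 10 and 0.127 and 5.71 in cluster 2. Klra2, a lectin-like receptor, was 0.921 and 7.46, then 5.17 and 19.0. Wfdc17, a small secreted protein of activated macrophages, was 0.0669 and 2.33, then 0.717 and 2.91. Ikzf2, the Helios transcription factor of T and NK cells, was 8.74 and 16.5 in cluster 7 and went from 0.238 to 3.57 in cluster 10. Reads of the Sirpb1 family, near-identical copies, may be split uncertainly.

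The 4 adult globin genes stood apart. Their sum was 22.9 in the MKO column of cluster 10 and at most 1.58 in any of the other 25 columns, and Hbb-bs (beta globin) alone was 12.96 against 0.214 in the control pool. The other erythroid markers were at or near 0 in the MKO column: Klf1, the erythroid master regulator, at 0.0316, Alas2, the erythroid heme synthesis enzyme, at 0.216, and Epor, the erythropoietin receptor, listed at 0. Globin genes are near-identical copies, so the split between them is uncertain and the sum is the safer value. Ribosomal protein genes also differed, with a sum of 69.2 and 183, and 37 of the 164 higher genes (22.6%) were ribosomal protein genes against 3.31% of all genes past the floor. That sum was higher in the MKO pool in 12 of the 13 clusters, from 80.2 to 127 in cluster 2 and from 142 to 215 in cluster 7. With ribosomal protein, globin and mitochondrial genes left out of the scale, an alternative added after seeing the data, 137 genes were 2-fold higher and 154 lower.

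**Figure D4:**
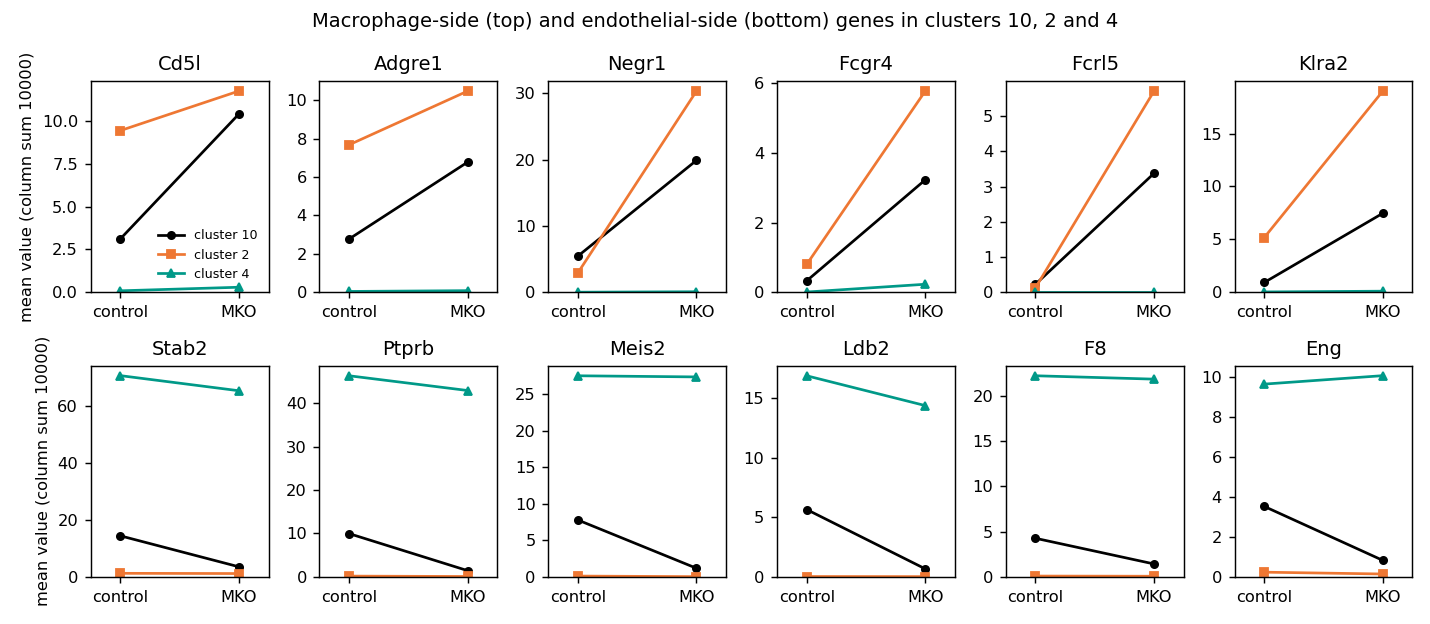
Level (vertical axis, column sum 10000) in the control and MKO pools of clusters 10, 2 (macrophage-like) and 4 (sinusoidal endothelial-like) for 6 genes of the macrophage side and 6 of the endothelial side, each point 1 pool. On the lower row the MKO value of cluster 10 is the lower one while those of cluster 4 lie close together, for example Ptprb from 9.97 to 1.44 against 46.3 to 42.9.

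Tgfbr1, the type I TGF-beta receptor that the MKO design targets (chromosome 4, 47353222 to 47414931, + strand), was 6.88 in the control column of cluster 10 and 4.15 in the MKO column. It was 13.5 and 4.87 in cluster 2, 1.11 and 0.822 in cluster 4 and 2.61 and 2.23 in cluster 7. Whole livers gave 737, 810 and 777 normalised reads in the controls and 560, 857 and 735 in MKO 1 to 3 (log2 fold change -0.13 ± 0.16 SE, limma adjusted p = 0.816). No source used here names the floxed exon, so a count over the whole gene is no measure of deletion.

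Of the 25 TGF-beta pathway genes listed, 8 passed the floor in cluster 10, with 0 at 2-fold higher and 2 at 2-fold lower, beside 11.1% and 10.9% of all genes past the floor, and the list summed to 37.7 and 29.9. The 2 were Eng, the endothelial co-receptor endoglin (3.53 and 0.828), and Smad6, an inhibitory Smad (2.31 and 0.57). Both reached the floor through the control pool alone. Eng was 9.65 and 10.1 in cluster 4. Skil, a Smad repressor that the pathway itself induces, was 3.38 and 1.70, beside 3.17 and 2.07 in cluster 2. Tgfbr2, the type II receptor, was 1.88 and 2.49.

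A list of 15 genes that had moved in MKO livers or macrophages was read in the same column. It was chosen on these samples and is not independent evidence of its direction. Its sum was 14.4 and 43.4, with 12 of 15 members higher in the MKO pool. Negr1, a cell adhesion molecule, was 5.45 and 19.9 (2.92 and 30.3 in cluster 2), and Fcgr4, an activating IgG receptor, 0.326 and 3.22. Cd300e was 0.222 and 1.73, and Itgad, an integrin alpha chain, was listed at 0 and at 1.91. Gpnmb, a gene of lipid-laden macrophages, was 1.26 and 0.0856, and Trem2 0.196 in control and listed at 0 in MKO nuclei. In cluster 10 the level of Negr1 in the control pool was above that in cluster 2.

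In whole liver, where replicates exist, no cycle gene of the lists passed the test. The libraries held 17448117 to 23986319 recovered reads. Values here are normalised read counts, and changes are log2 fold changes with standard errors. A change in such a value may come from more dividing cells or from more RNA per cell, and these cannot be told apart. Of 170 cycle genes tested, limma called 0 higher and 0 lower at an adjusted p of 0.05, against 2.96% of 15249 genes higher and 0.0853% lower. edgeR and DESeq2 on the recovered reads also called 0. An unadjusted limma p under 0.05 was found for 14 of the 170, beside 1847 of all 15249 genes tested. Without control 1, 1 of the cycle genes was called, Kif23 (log2 fold change 1.82, limma adjusted p = 0.0482).

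Top2a was read at 84.7, 40.9 and 27.6 in the controls, while the MKO livers gave 65.9, 96.9 and 48.2. The groups overlapped, with control 1 above 2 of the MKO livers (0.55 ± 0.42 SE, limma adjusted p = 0.688). Mki67 was 190, 123 and 66.0 in the controls and 187, 233 and 120 in the MKO livers, with the same overlap (0.58 ± 0.38, limma adjusted p = 0.625). Kif11 was 32.6, 17.8 and 24.6 against 19.5, 39.8 and 22.2 (0.09 ± 0.36, limma adjusted p = 0.956), and its sign turned without control 2 or without MKO 2. Diaph3, at 9.77, 8.40 and 2.96 against 6.10, 7.14 and 15.4, was spread as widely (0.41 ± 0.56, limma adjusted p = 0.836). Knl1 was the 1 marker whose groups did not overlap, at 11.9, 2.10 and 10.8 against 13.4, 13.3 and 16.4 (0.97 ± 0.58, limma adjusted p = 0.582). With 1 library left out, the log2 fold change of Top2a ran from 0.19 (without control 3) to 0.98 (without control 1) and that of Mki67 from 0.18 to 0.94 (without the same libraries). That of Knl1 ran from 0.30 (without control 2) to 1.34 (without control 1), and none of the 3 was called. The share of all genes higher with groups that do not overlap was 10.4%, and of the cycle genes 18 of 170 (10.6%) were so.

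The cycle genes nearest to the threshold were mixed in role. Kif23 was 31.5, 15.7 and 7.88 in the controls and 42.7, 38.8 and 45.3 in the MKO livers, every MKO liver above every control (1.35 ± 0.45, limma adjusted p = 0.223). Kif15, at 8.69, 3.15 and 2.96 against 10.98, 15.3 and 22.2, showed the same order (1.61 ± 0.51, limma adjusted p = 0.196). Cdc25b, a phosphatase that activates Cdk1, went from 24.97, 16.8 and 21.7 to 37.8, 47.9 and 42.4 (0.99 ± 0.26, limma adjusted p = 0.112). These 3 were named after their values were seen. Positive fold changes were found for 109 of the 170 genes (64.1%) against 45.9% of all genes, with a median of 0.09 against -0.02.

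Averaged on the log2 scale, the cycle genes stood at 5.44, 4.95 and 4.795 in the controls and 5.26, 5.36 and 5.07 in the MKO livers. Control 1 had the highest average of all 6, so the spread among the controls covers that of the MKO livers. Cytokinesis genes gave 5.03, 4.03 and 3.77 against 4.45, 4.74 and 4.49, again with control 1 on top. In the fork repair list every MKO liver was above every control, at 4.33, 3.99 and 4.0003 against 4.66, 4.58 and 4.39, though none of its 19 genes was called. The licensing and G1/S list showed the same order, at 5.84, 5.78 and 5.74 against 5.96, 5.92 and 6.01, with none of its 22 tested genes called. In these same livers 13 of 19 macrophage markers rose and 0 fell, beside 2.96% and 0.0853% of all genes, and 4 of 21 T and NK markers rose (median log2 fold change 1.42). Of 14 sinusoidal endothelial markers 1 rose, Pecam1, but all 14 had positive fold changes (median 0.27) and in 7 every MKO liver was above every control, beside 10.4% of all genes.

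Of the 20 brakes and G1 regulators 2 rose in whole liver and 0 fell, beside 2.96% and 0.0853% of all genes. Ccnd2, cyclin D2, went from 156, 118 and 154 to 394, 427 and 500 (1.63 ± 0.16, limma adjusted p = 0.00345). Cdkn2a, the locus of the p16 and ARF cell cycle inhibitors, went from 4.34, 2.10 and 5.91 to 37.8, 41.8 and 52.0 (3.196 ± 0.40, limma adjusted p = 0.00508). The groups did not overlap in either case. Cdkn2a is also among the 15 genes chosen above on these samples, so its rise is not independent evidence about this list. In the nuclei of cluster 10, Ccnd2 was 0.413 and 1.23 and Cdkn2a 0.282 and 0.651, both below the floor.

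**Figure D5:**
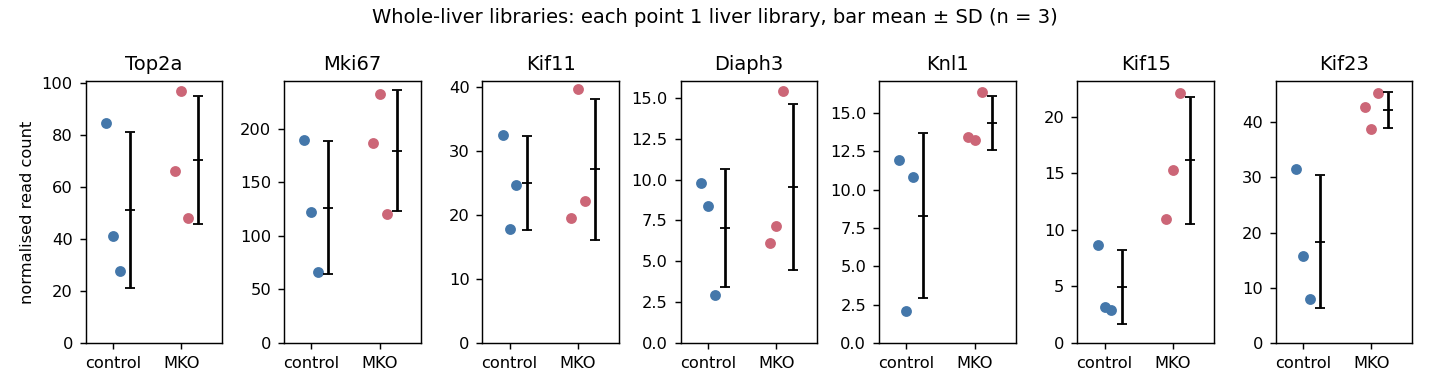
Normalised read count (vertical axis) in each of 3 control and 3 MKO whole-liver libraries for the 5 markers and for Kif15 and Kif23, with the mean and SD of each group in black. Points of the groups overlap for Top2a, Mki67, Kif11 and Diaph3 and lie apart for Knl1, Kif15 and Kif23, none of which passed the test.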

How the data were processed

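Nuclei from frozen liver were sorted and run on the 10x Chromium system, and bulk RNA came from frozen tissue, per the labels' protocols. Cell Ranger, Seurat 4.0.1, STAR, RSEM 1.3.3 and DESeq2 with mm10 are named per the submitters' processing notes. No source used here states their roles, the clustering, filters, doublet removal, nucleus numbers or annotation. In the nucleus table the authors deposited a signal, a mean per gene, cluster and genotype, each column summing to 10000. For bulk RNA the authors deposited another signal, counts per gene scaled by the size factor of each library, and 100% of values gave back whole reads within a tolerance of 0.01. The authors' deposited log2 fold changes and p-values were not used.

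In the nuclei, genes whose larger value in cluster 10 reached 2.01, the 90th percentile of such values above 0, were compared as log2 ratios with a pseudocount of 1/10 of it, without a test. Markers were scaled by their largest value before the least squares fit (SciPy 1.17.1), and the weights were divided by their sum. Bulk values were tested with limma-trend (limma 3.58.1, R 4.3.3) on log2(value + 1) over the 15249 genes with a mean of at least 1, two-sided, with Benjamini-Hochberg adjustment over all of them; log2(value + 1) understates changes of low genes. edgeR 4.0.16 and DESeq2 1.42.0 were run on the recovered reads as alternatives. Scripts were tested on simulated data. The labels number the bulk replicates but do not name separate animals; the p-values cover the spread among these libraries, which may be technical.

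Members and gene lists were chosen with earlier results of these data known. Named genes are the 5 markers, the 20 leading genes, the 10 highest and 10 lowest ratios with official symbols, up to 4 of the highest members of each list, and called bulk members; others are named as examples of their list after their values were seen. A result that the rule would name is not reported here. For bulk, histone symbols were matched through RefSeq synonyms (8 of 15 tested). Promoter sequences are RefSeq's on GRCm38.p6. Alternatives covered the pseudocount, the floor, the scaling, the tool, the low-value filter, the replicate block and leaving out each library.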

Additional observations from a re-analysis of the deposited data

Results flagged for a closer look

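In 3 genes past the floor the difference between the pools was 2-fold or more in cluster 10 and 2-fold or more in the opposite direction in a lineage cluster. These differences between clusters were not tested, since each value is 1 pool. Cnksr3, a scaffold protein, had a log2 ratio of -1.05 in cluster 10 (2.04 for control and 0.886 for MKO) and 1.35 in cluster 2 (0.667 and 1.92). Eea1, a tether of early endosomes, had -1.13 in cluster 10 (2.68 and 1.12) and 1.26 in cluster 7 (0.975 and 2.56). Sox5, a transcription factor, had 1.43 in cluster 10 (3.195 and 8.95) and -1.51 in cluster 7 (1.75 and 0.511). No gene did so against cluster 4.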

How the results depend on the processing

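The 164 genes higher and 161 lower by 2-fold in cluster 10 became 97 and 96 with a pseudocount of 1/2 of the floor, 339 and 340 with the floor at the 80th percentile, and 90 and 76 with it at the 95th; fewer or more genes are compared at other floors. The weight of cluster 4 in the MKO pool became 10.3% on log2 values, 5.73% over all genes past the floor outside the cycle lists and 0.551% with the clusters of the other pool. On log2 values the weight of cluster 7 became 22.7% for control and 26.4% for MKO; the cause was not tested. The median ratio of plasmacytoid dendritic markers turned to -1.46 with the floor at the 95th percentile, where 1 gene was left. Of 559 alternative values of single genes in cluster 10, 29 moved by 1.5-fold or more and 0 turned. The 452 genes higher in whole liver ranged from 175 to 410 with 1 library left out, and the 13 lower from 5 to 31; 238 were higher without control 2, 175 without MKO 2 and 181 without MKO 3. DESeq2 called 50 lower. With 1 library left out, log2 fold changes ranged from -0.22 to 0.29 for Kif11, -0.034 to 0.69 for Diaph3, -0.24 to 0.041 for Pcna, -0.23 to 0.20 for Brca2, -0.063 to 0.27 for Hjurp and -0.14 to 0.62 for Ccnf, none of them called. Deviations of same-numbered libraries had correlations of 0.0557, -0.03 and -0.109, and those of differently numbered libraries ran from -0.106 to 0.150. With 3 libraries per group these values cannot decide whether the numbers pair libraries. With a replicate block 391 genes were higher and 17 lower, and no cycle gene was called. The unknown number of nuclei limits every value of cluster 10.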
